A study of Mus musculus with 13 samples.

Results

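The 7 genes described here, Baiap2l2, Ank, Serpine2, Cadm1, Timp2, Cd52 and Lyz2, are among the less studied genes of the disease-associated state of microglia, and were taken by gene symbol from the 19737 genes of a mouse RNA-seq table. They were chosen by their FPKM values, which were higher in 5xFAD than in wild-type microglia, and for lying outside the lipid, lysosome and receptor families, so their difference from wild type is given as a description without a test. The question put to them was whether either of the study's treatments moved them. Microglia are the resident macrophages of the brain, and 5xFAD is a mouse line that carries mutant human transgenes of familial Alzheimer disease under the neuronal Thy1 promoter and forms amyloid plaques. Near plaques, microglia take up a state known as disease-associated, in which homeostatic genes fall and genes of phagocytosis, lipid handling and secretion rise. The genes studied here belong to that state by their pattern but work in other ways: as secreted enzymes and enzyme inhibitors, as surface proteins, and as a protein that bends the plasma membrane.

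The 13 libraries came from microglia of 4 groups. Wild-type mice given AAV PHP.eB-EGFP, a brain-penetrating vector with a fluorescent protein, gave 3 libraries, and 5xFAD mice given the same vector gave 2. A circRNA from POLR2A, expressed from the same vector type in 5xFAD mice, gave 4 libraries. The title of the series speaks of double-stranded circular RNA delivered to neurons, so the vector's target cell and the cell profiled are not the same. The treatment labels of the circRNA libraries name circPOLR2A(9,10), (9,11), (9,12) and (9,13) in turn, whereas the study's design names (9,10) for all 4, and the grouping by title was used here. The last 4 libraries came from 5xFAD mice with knockout (KO) of PKR, the double-stranded RNA kinase encoded by Eif2ak2, for which the labels name no vector. Library names stand in the labels of the PKR KO group and of no other, so a library batch and the knockout cannot be told apart. The labels give no age, sex or cell isolation method and do not say that replicates are separate animals, so p-values measure the spread between these libraries, which may be technical.

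Depth, recovered from the steps of the low values, was 45.2 to 70.0 M (mega) fragments for each library. Some low values fell on odd multiples of 0.5 fragments, and if that smaller step were the fragment, these depths and all fragment counts here would be 2 times as high. Eif2ak2 itself had 3.31 to 4.61 FPKM (fragments per kilobase of gene, scaled to library depth) in the PKR KO libraries 6.49 to 6.59 in 5xFAD EGFP, 7.37 to 8.11 with circRNA and 4.14 to 5.23 in wild type. Its transcript was thus below the other 5xFAD groups in PKR KO but not at 0, and overlapped wild type. Where the deletion lies in the gene is not given in the sources used here. The 10 microglial markers were present in every library and summed to 2830 to 5430 FPKM, whereas the 5 neuronal markers summed to 3.16 to 13.2 and the 5 astrocyte markers to 55.2 to 173. Wild-type replicate 3 stood apart, with the lowest microglial sum (2830) and the highest oligodendrocyte sum (1118 FPKM, against 215 to 564 in the other wild-type, EGFP and circRNA libraries and 156 to 257 in PKR KO), and the ratios of the 7 genes to wild type are therefore given with and without it. Of the wild-type means of other genes printed below, that of Cadm4 moved by over 1.5 times without it. Lymphocyte markers, of which 4 of 5 were in the table, summed to 0.0685 to 0.512 FPKM. The summed markers of monocytes and neutrophils were 1.29 to 16.4 FPKM, the highest being PKR KO replicate 4. Border macrophage markers summed to 28.8 to 46.0 FPKM in wild type and 10.6 to 19.5 in the 5xFAD libraries. In bulk RNA, fewer cells of a type and less RNA in each cell cannot be told apart.

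Serpine2 encodes protease nexin-1, a secreted inhibitor of thrombin and of the plasminogen activators, and lies at chr1:79794197-79861180 on the minus strand (GRCm38, here and for all positions). Its levels in wild-type replicates 1 to 3 were 19.9, 19.2 and 17.1 FPKM. In 5xFAD they were 56.3 and 50.7 with EGFP, 60.7, 68.5, 74.2 and 51.8 with circRNA, and 61.1, 65.4, 57.1 and 67.0 with PKR KO. Every 5xFAD library was above every wild-type library, and the 3 groups of 5xFAD libraries overlapped except that all PKR KO libraries were above both EGFP libraries. The means were 18.7 ± 1.46 FPKM (SD, n = 3) in wild type and 53.5 ± 3.90 (n = 2) in 5xFAD EGFP, a ratio of 2.86, or 2.74 without wild-type replicate 3. With circRNA and PKR KO the means were 63.8 ± 9.73 and 62.7 ± 4.45 FPKM (n = 4 each), 3.41 and 3.35 times that of wild type, or 3.26 and 3.20 times without that replicate.

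Of the genes around Serpine2, 5 of 7 listed were expressed at a mean of at least 1 FPKM. The urokinase Plau, one of its target proteases, averaged 15.8 FPKM in wild type, 67.2 in 5xFAD EGFP, 82.5 with circRNA and 63.6 with PKR KO. The urokinase receptor Plaur averaged 2.87, 12.1, 14.7 and 18.0 FPKM in the same order. Serpine2, this protease and its receptor thus had their lowest group mean in wild type. The other genes of the list did not: Plat, the tissue plasminogen activator that Serpine2 also inhibits, averaged 3.30, 1.06, 1.27 and 1.32 FPKM. The related inhibitor Serpinf1 averaged 7.19, 2.56, 2.78 and 2.00 FPKM, and Lrp1, a receptor that clears protease and inhibitor complexes, averaged 115, 115, 125 and 133. On the log2(FPKM + 1) scale 3 of the 5 were higher and 2 lower in 5xFAD EGFP than in wild type. Endothelial markers summed to 35.6 to 81.0 FPKM in wild type and 17.3 to 47.8 in the 5xFAD libraries, and mural markers to 33.8 to 78.2 and 13.2 to 34.1. Their part in the Plat and Serpinf1 values was not tested.

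Timp2 encodes a secreted inhibitor of matrix metalloproteinases that also takes part in the activation of pro-MMP2 by MMP14 (chr11:118301069-118355740, minus strand). It was abundant in wild type already, with 68.6, 73.2 and 48.9 FPKM in replicates 1 to 3. The 5xFAD EGFP libraries had 122 and 119 FPKM, the circRNA libraries 138, 143, 169.7 and 127, and the PKR KO libraries 137, 153, 135 and 152. All treated libraries of either kind were above both EGFP libraries. The mean was 63.6 ± 12.9 FPKM (SD, n = 3) in wild type and 120.3 ± 2.33 (n = 2) in 5xFAD EGFP, a ratio of 1.89, or 1.70 without wild-type replicate 3, and the ratios for circRNA and PKR KO were both 2.27, or 2.04 and 2.03 without it. The ratio in 5xFAD EGFP was the smallest of the 7 genes, with that of Cadm1 next to it.

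The relatives and partners of Timp2 that passed the filter on low values were mostly not higher in 5xFAD. Timp3, another inhibitor of the family, averaged 15.8 FPKM in wild type and 4.68, 6.50 and 5.88 in 5xFAD EGFP, circRNA and PKR KO. Mmp2 averaged 5.95, 3.68, 3.91 and 3.09 FPKM, and Mmp14 averaged 5.13, 4.66, 5.55 and 5.11. Markers of mural cells, which also express Timp3, summed to 33.8 to 78.2 FPKM in wild type and 13.2 to 34.1 in the 5xFAD libraries, and their part in the Timp3 values was not tested. Of the Timp2 list 5 of 9 genes passed the filter, and 1 of the 5 was higher in 5xFAD EGFP than in wild type on the log2 scale. Below the filter, the macrophage metalloelastase Mmp12, named after its values were seen, averaged 0.143 FPKM in wild type and 0.438, 0.560 and 0.361 in the 5xFAD groups.

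Lyz2 encodes lysozyme M, the secreted enzyme of macrophages and neutrophils that cuts bacterial peptidoglycan (chr10:117277331-117282321, minus strand). It had the highest level of the 7 genes per length: 99.2, 114 and 73.4 FPKM in wild type and 408 and 332 in 5xFAD EGFP. The circRNA libraries had 429, 448, 595 and 351 FPKM and the PKR KO libraries 548, 501, 467 and 469.7. The PKR KO libraries were all above the EGFP libraries, whereas circRNA replicate 4 lay between the EGFP values. Group means were 95.4 ± 20.4 FPKM (SD, n = 3) in wild type, 370.0 ± 53.5 (n = 2) in EGFP, 456 ± 102 (n = 4) with circRNA and 496 ± 37.6 (n = 4) with PKR KO. The ratios to wild type were 3.88, 4.78 and 5.20, or 3.48, 4.28 and 4.66 without wild-type replicate 3. Lyz1, a near-identical neighbour named here because reads could be split between the copies, had 0.0392 to 0.671 FPKM over all libraries. Markers of monocytes and neutrophils, which also make lysozyme, summed to 4.72 to 5.82 FPKM in wild type, 3.62 to 7.43 in EGFP, 1.55 to 7.32 with circRNA and 1.29 to 16.4 with PKR KO. Their part in the Lyz2 values was not tested.

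Ank encodes a membrane protein that mediates the release of ATP, from which extracellular pyrophosphate is made, and so limits mineral deposition (chr15:27466677-27594909, plus strand). Its wild-type levels were 9.51, 9.25 and 14.7 FPKM. They were 102 and 97.3 FPKM in 5xFAD EGFP, 108, 119, 120.4 and 96.6 with circRNA, and 97.5, 109, 94.8 and 119 with PKR KO. The wild-type libraries were far below all others, while the 3 sets of 5xFAD libraries overlapped, with 3 circRNA and 2 PKR KO libraries above both EGFP libraries. The mean was 11.2 ± 3.09 FPKM (SD, n = 3) in wild type and 99.6 ± 3.19 (n = 2) in 5xFAD EGFP, a ratio of 8.92, or 10.6 without wild-type replicate 3, in which Ank was highest. Ratios to wild type were 9.94 with circRNA and 9.42 with PKR KO, or 11.8 and 11.2 without it.

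Genes that handle pyrophosphate and phosphate with Ank took several courses: 6 of 7 listed were expressed, 3 higher and 3 lower in 5xFAD EGFP than in wild type. Enpp1, which makes pyrophosphate from ATP, averaged 0.974 FPKM in wild type and 1.80, 2.02 and 2.09 in 5xFAD EGFP, circRNA and PKR KO. Alpl, the phosphatase that degrades pyrophosphate, averaged 6.77, 2.00, 2.79 and 1.75 FPKM. The maker was thus lowest and the degrader highest in wild type. Markers of endothelial cells, which also express Alpl, summed to 35.6 to 81.0 FPKM in wild type and 17.3 to 47.8 in the 5xFAD libraries, and their part in the Alpl values was not tested.

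Cadm1 encodes an immunoglobulin-type adhesion molecule of synapses, glia and blood cells (chr9:47530173-47857637, plus strand). Its wild-type values had the smallest SD relative to the mean of the 7 genes, 8.66, 8.37 and 8.71 FPKM. The values were 17.4 and 16.0 FPKM in 5xFAD EGFP, 19.6, 19.6, 21.4 and 16.9 with circRNA, and 16.0, 17.7, 15.6 and 19.5 with PKR KO. Each 5xFAD group overlapped the other 2. The mean was 8.58 ± 0.187 FPKM (SD, n = 3) in wild type and 16.7 ± 0.954 (n = 2) in 5xFAD EGFP, a ratio of 1.95 that was 1.96 without wild-type replicate 3. The ratios for circRNA and PKR KO were 2.26 and 2.00, or 2.27 and 2.02 without it. Of 7 listed relatives and binding partners 4 were expressed at the filter, among them Cadm4, which averaged 7.30 FPKM in wild type and 8.84, 8.60 and 6.11 in the 5xFAD groups in the same order. Its wild-type libraries ran from 4.32 to 13.2 FPKM, with a mean of 4.35 without replicate 3, so PKR KO lay below the wild-type mean with that library and above it without. Of the 4, 2 were higher and 2 lower in 5xFAD EGFP than in wild type. Neurons and astrocytes also make Cadm1, and their summed markers ranged over 3.16 to 13.2 and 55.2 to 173 FPKM in the 13 libraries, and their part in the Cadm1 values was not tested.

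Cd52 encodes a short GPI-anchored glycoprotein of leukocytes, known as the target of a lymphocyte-depleting antibody (chr4:134082448-134095082, minus strand). In wild type it had 9.95, 11.1 and 6.41 FPKM. It had 48.5 and 38.1 FPKM in 5xFAD EGFP, 50.3, 67.9, 58.9 and 36.7 with circRNA, and 55.6, 58.2, 49.0 and 49.7 with PKR KO. The circRNA libraries spanned a wider range than the other groups, and circRNA replicate 4 was the lowest of the 10 5xFAD libraries. Means were 9.14 ± 2.43 FPKM (SD, n = 3) in wild type, 43.3 ± 7.32 (n = 2) in EGFP, 53.5 ± 13.3 (n = 4) with circRNA and 53.1 ± 4.50 (n = 4) with PKR KO. The ratios to wild type were 4.74, 5.85 and 5.81, or 4.12, 5.09 and 5.06 without wild-type replicate 3. Markers of lymphocytes, which carry much Cd52, were low, but the sum of the 4 differed between the groups in the same direction as Cd52. It was 0.0685 to 0.101 FPKM in wild type and 0.154 to 0.225 in EGFP. With circRNA it was 0.235 to 0.512 and with PKR KO 0.234 to 0.486. Nkg7 had the largest mean of the 4 in every 5xFAD group, with 0.194 FPKM for circRNA and 0.227 for PKR KO. In wild type it averaged 0.0153. Cd79a alone had its highest mean in wild type, at 0.0519 FPKM. It averaged 0.0189 in EGFP, 0.0492 with circRNA and 0.0367 with PKR KO. The part of lymphocytes in the Cd52 values was not tested. Crybg2, whose exons overlap those of Cd52 on the opposite strand, was at 0.00567 to 0.0279 FPKM. All 6 listed surface proteins related to Cd52 were expressed: Cd48 averaged 17.4, 34.1, 38.8 and 37.1 FPKM from wild type to PKR KO, and Siglece 19.1, 7.87, 7.58 and 7.13.

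Baiap2l2 encodes an I-BAR domain protein, which binds the plasma membrane and shapes its protrusions (chr15:79258195-79285537, minus strand). It had the lowest level in wild type and the highest ratio of the 7 genes. Wild-type replicates 1 to 3 had 0.171, 0.115 and 0.0145 FPKM, equal to 22, 15 and 2 fragments at the recovered depths. In 5xFAD the values were 17.8 and 17.1 FPKM with EGFP, 18.3, 18.3, 22.1 and 20.2 with circRNA, and 22.5, 25.3, 19.5 and 23.3 with PKR KO, from 2278 to 4838 fragments a library. Both treated groups lay above both EGFP libraries. Means were 0.1002 ± 0.079 FPKM (SD, n = 3) in wild type, 17.4 ± 0.515 (n = 2) in EGFP, 19.7 ± 1.82 (n = 4) with circRNA and 22.7 ± 2.43 (n = 4) with PKR KO. The ratio of 5xFAD EGFP to wild type was 174 and was 122 without wild-type replicate 3, so its size rests on 39 wild-type fragments in all. With circRNA and PKR KO the ratios were 197 and 226, or 138 and 158 without that replicate. Of 7 listed relatives and partners 6 were expressed, 1 higher and 5 lower in 5xFAD EGFP than in wild type. Among the lower ones Mtss1, a related membrane-bending protein, averaged 6.17 FPKM in wild type and 2.92, 3.18 and 2.35 in 5xFAD EGFP, circRNA and PKR KO.

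**Figure D1:**
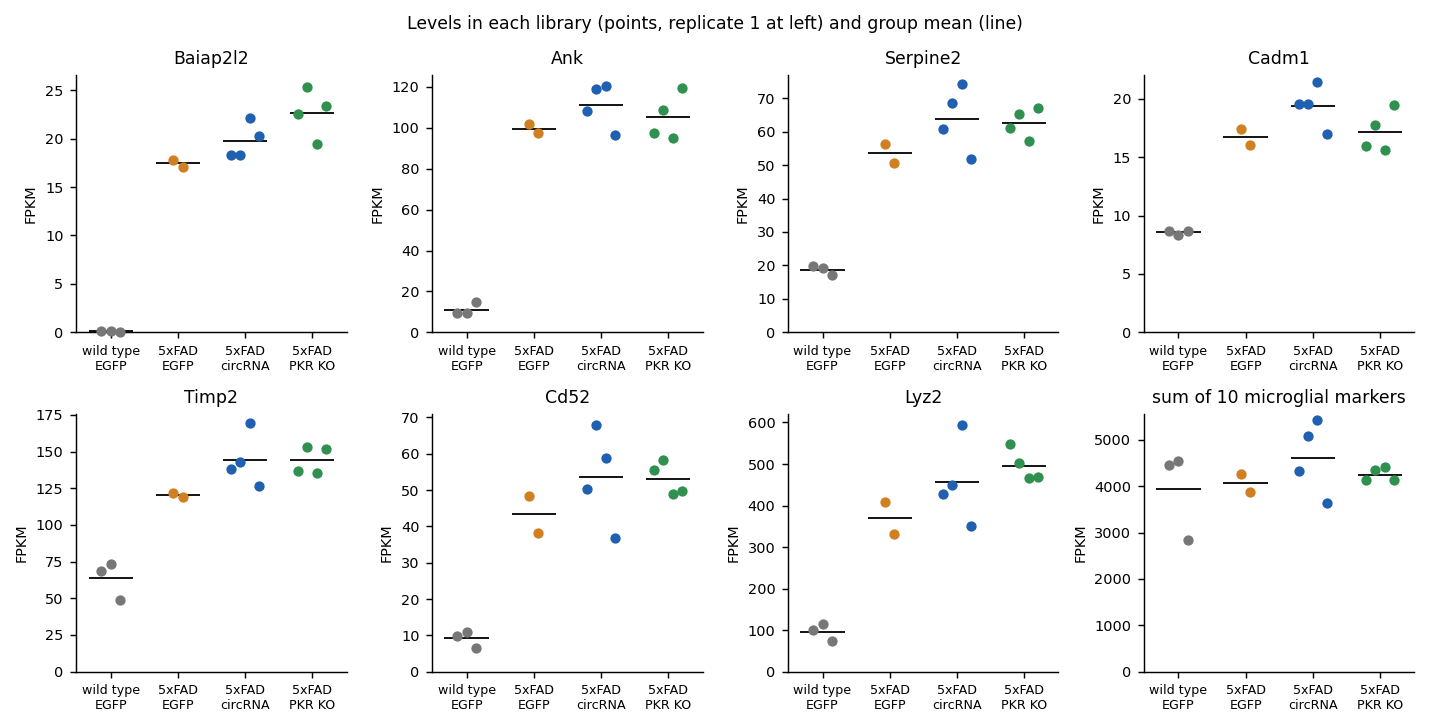
FPKM of the 7 genes and the summed FPKM of 10 microglial markers in each of the 13 libraries (points, replicate 1 at the left of each group) with the group mean as a line and every axis starting at 0. All wild-type points lie below all 5xFAD points for each of the 7 genes, which is how they were chosen, while the marker sum of the 5xFAD libraries overlaps that of wild type.

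In all 7 genes every 5xFAD EGFP library was above every wild-type library, as were 16.5% of the 10817 genes tested, and nothing is read from this count because the genes were chosen for it. The choice also rested on the 2 EGFP libraries that serve as control in both treatment comparisons. The other 26 disease-associated genes listed, among them Apoe, Trem2, Cst7 and Lpl, were all higher in 5xFAD EGFP than in wild type, by 0.90 to 6.93 on the log2(FPKM + 1) scale with a median of 1.74. On that scale Baiap2l2 was 4.07 higher, Ank 3.08, Cd52 2.15, Lyz2 1.96, Serpine2 1.47, Timp2 0.93 and Cadm1 0.89. Adding 1 to FPKM before the logarithm shrinks the difference of genes near 0 such as Baiap2l2 in wild type.

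Promoters of 4 of the 7 genes (Ank, Serpine2, Timp2 and Lyz2) had an entry in a RefSeq table of the build GRCm38.p6. Ank and Lyz2, which lie at opposite ends of the 4 in base composition, are printed. For Serpine2 and Timp2 the 250 bases before the RefSeq start all lie inside the gene model of the GENCODE annotation, so none was left to print. The sequences run 5′ to 3′ on the strand of the gene and end at the base before the gene model of the GENCODE annotation, which for Lyz2 begins upstream of the RefSeq start from which distances are counted, and capitals in Ank mark the letters matched by a searched motif, of which the Lyz2 promoter held none.
Ank promoter, chr15:27466427-27466676, plus strand: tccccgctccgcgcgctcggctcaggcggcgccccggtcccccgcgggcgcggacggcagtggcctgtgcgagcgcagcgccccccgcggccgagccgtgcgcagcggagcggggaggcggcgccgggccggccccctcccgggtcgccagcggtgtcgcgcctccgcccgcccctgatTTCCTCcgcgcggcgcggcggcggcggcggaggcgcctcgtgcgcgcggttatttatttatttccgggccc
Lyz2 promoter, chr10:117282322-117282522, minus strand: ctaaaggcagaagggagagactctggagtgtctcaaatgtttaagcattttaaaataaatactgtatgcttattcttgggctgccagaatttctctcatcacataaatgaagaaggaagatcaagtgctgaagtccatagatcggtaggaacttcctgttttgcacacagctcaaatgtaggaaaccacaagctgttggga
In the 250 bases before the RefSeq start, GC content was 81.2% for Ank, 78.8% for Serpine2, 68.0% for Timp2 and 41.6% for Lyz2, against a median of 52.4% over 32851 windows. Of all windows 99.1% had a lower GC content than Ank and 14.9% a lower one than Lyz2. Motifs of 4 transcription factor families active in macrophages were searched on both strands. GAGGAA, the core of PU.1 sites, was found in 1 of the 4 promoters, in Ank 71 bases before the start (as TTCCTC in the printed strand), and in 23.3% of all windows. TCACGTG and TCATGTG (MITF and TFE factors) were in none of the 4 and in 3.1% and 3.3% of all windows. TGACTCA (AP-1) and TTGCNNAA (C/EBP) were also in none of the 4 and in 4.5% and 9.6% of all windows. These matches describe letters in a window and say nothing of binding.

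Neither treatment moved any of the 7 genes past the threshold. With circRNA against EGFP in 5xFAD, 0 of 7 genes passed an adjusted p of 0.05 in limma on log2(FPKM + 1), as did 0% of the 10817 genes tested, and 0 of 7 and 4.83% of all genes had an unadjusted p under 0.05. All 7 estimates were above 0, from 0.15 (Ank) to 0.28 (Lyz2) with a median of 0.24, where all genes had a median of 0.08. All libraries with circRNA were above both EGFP libraries in 2 of 7 genes, Baiap2l2 and Timp2, and in 16.6% of all genes. They were below both in 0 of 7 genes and in 2.65% of all genes.

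The secreted proteins gave similar estimates with circRNA. Lyz2 differed by 0.28 in log2(FPKM + 1) (95% confidence interval -0.18 to 0.75, limma adjusted p = 0.743). Timp2 differed by 0.25 (-0.10 to 0.61, limma adjusted p = 0.739) and Serpine2 by 0.24 (-0.05 to 0.53, limma adjusted p = 0.739). All 3 intervals hold 0 and reach up to at least 0.53, so no change and a moderate rise are both within them. Among the membrane proteins, Cd52 differed by 0.27 (-0.23 to 0.78, limma adjusted p = 0.746), Cadm1 by 0.20 (-0.03 to 0.42, limma adjusted p = 0.739) and Ank by 0.15 (-0.22 to 0.52, limma adjusted p = 0.783). Baiap2l2 differed by 0.17 (-0.07 to 0.40, limma adjusted p = 0.739). The microglial marker sum was 3627 to 5430 FPKM with circRNA and 3874 to 4255 with EGFP, and its part in the estimates was not tested. A covariate was made from the mean log2(FPKM + 1) of the neuronal, astrocyte, oligodendrocyte, endothelial and mural markers. With it the 7 estimates were 0.16 (Baiap2l2) to 0.26 (Lyz2).

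The size of the circRNA estimates depended on the scaling and on single libraries. FPKM summed to 148551 to 170775 in the circRNA libraries and to 139019 to 151254 with EGFP. After rescaling to the same sum the 7 estimates were 0.03 (Ank) to 0.17 (Lyz2), and after quantile normalization 0.01 (Ank) to 0.14 (Cd52), all above 0. Without EGFP replicate 2 Cd52 was at 0.10 and Lyz2 at 0.13, and without EGFP replicate 1 at 0.44 and 0.43. Without circRNA replicate 3 Lyz2 was at 0.15, and Cd52 was at 0.15 without circRNA replicate 2 and at 0.44 without replicate 4.

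With PKR KO against EGFP in 5xFAD, 0 of 7 genes passed, beside 0.0832% of all genes (9, all higher). Baiap2l2 alone, 1 of 7, had an unadjusted p under 0.05, where 13.0% of all genes (1404) did. Its difference was 0.36 (0.12 to 0.59, limma adjusted p = 0.216), with all PKR KO libraries above both EGFP libraries. Lyz2 differed by 0.43 (-0.04 to 0.89, limma adjusted p = 0.419). It had the largest estimate of the 7, with a larger standard error (0.215) than Baiap2l2 (0.108), from the spread pooled over all groups. Within PKR KO alone Lyz2 spread less, at -0.086 to 0.145 log2 units from the group mean, against -0.203 to 0.160 for Baiap2l2. Timp2 differed by 0.26 (-0.09 to 0.61, limma adjusted p = 0.504), Serpine2 by 0.22 (-0.07 to 0.52, limma adjusted p = 0.489) and Cd52 by 0.30 (-0.21 to 0.80, limma adjusted p = 0.588). The estimates of Ank, 0.07 (-0.30 to 0.44, limma adjusted p = 0.869), and Cadm1, 0.03 (-0.19 to 0.26, limma adjusted p = 0.905), were the smallest. All 7 estimates were above 0, with a median of 0.26 beside 0.01 over all genes, but those of Ank, Cadm1 and Timp2 turned below 0 after quantile normalization (-0.15, -0.04 and -0.03), as did Cadm1 after rescaling to the same sum (-0.02).

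All PKR KO libraries were above both EGFP libraries in 5 of 7 genes (Baiap2l2, Serpine2, Timp2, Cd52 and Lyz2), beside 17.7% of all genes. They were below both in 0 of 7, beside 17.0% of all genes. Oligodendrocyte markers moved with this comparison: their sum was 156 to 257 FPKM in PKR KO and 481 to 515 in EGFP. With the same marker covariate as for circRNA, the estimates were 0.06 for Cd52, 0.12 for Timp2, 0.15 for Serpine2, 0.30 for Lyz2, 0.32 for Baiap2l2, 0.17 for Ank and 0.03 for Cadm1, all without a pass. Without EGFP replicate 2 the Cd52 estimate was 0.13 and without EGFP replicate 1 it was 0.46. That of Lyz2 was 0.28 and 0.57, and that of Ank ranged from 0.01 to 0.12 over all libraries left out in turn. With sample weights from limma's arrayWeights, Baiap2l2 alone of the 7 passed (0.36, adjusted p = 0.0321). Over all settings tried its adjusted p ranged from 0.0321 to 0.794.

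**Figure D2:**
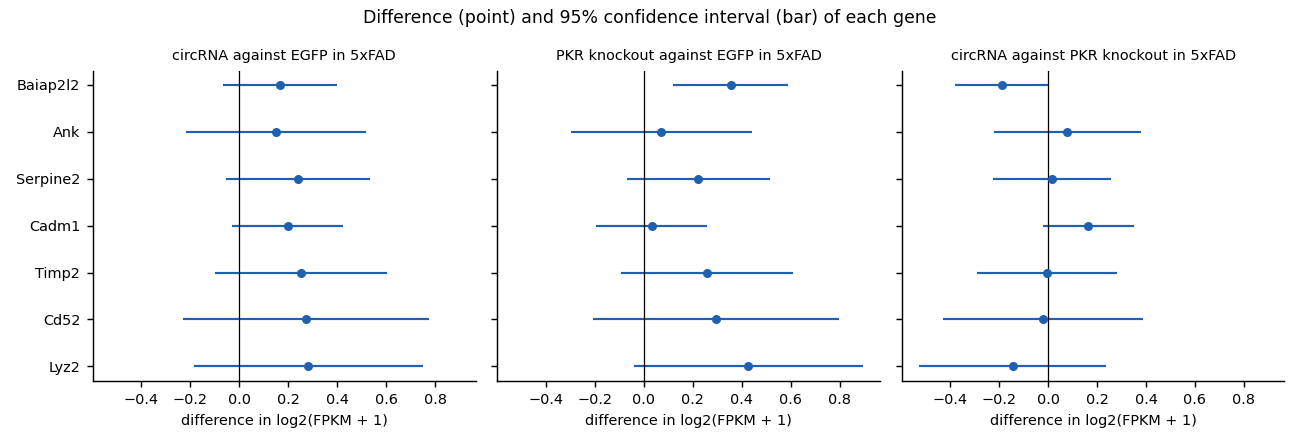
Difference in log2(FPKM + 1) of each of the 7 genes (points) with its 95% confidence interval (bars) in the 3 comparisons between 5xFAD groups, from limma over 13 libraries. Every interval holds 0 except that of Baiap2l2 for PKR knockout against EGFP (0.12 to 0.59).

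The estimates of circRNA against PKR KO use none of the EGFP libraries, although the spread in their errors and p-values is pooled over all 13. Here 0 of 7 genes passed, beside 6.19% of all genes (463 higher with circRNA, 4.28%, and 207 lower, 1.91%). An unadjusted p under 0.05 was found for 0 of 7, where 25.5% of all genes (2756) had one. Baiap2l2 came nearest, at -0.19 (-0.38 to 0.00242, limma adjusted p = 0.201). It passed under median-ratio scaling (-0.31, adjusted p = 0.0393) and under arrayWeights (-0.25, adjusted p = 0.0249), with 0.0249 and 0.578 as the lowest and highest adjusted p of all settings. Lyz2 differed by -0.15 (-0.53 to 0.24, limma adjusted p = 0.640) and Cadm1 by 0.16 (-0.02 to 0.35, limma adjusted p = 0.246). The others lay close to 0: Ank 0.08 (-0.22 to 0.38, limma adjusted p = 0.762), Serpine2 0.02 (-0.22 to 0.26, limma adjusted p = 0.948), Cd52 -0.02 (-0.43 to 0.39, limma adjusted p = 0.956) and Timp2 -0.0048 (-0.29 to 0.28, limma adjusted p = 0.987). No gene of the 7 had all circRNA libraries above all PKR KO libraries, which 15.1% of all genes had, or below them, which 4.44% had. Median-ratio scaling moved the median of all genes in this comparison from 0.08 to -0.02 and turned the split of calls to 147 higher of 844, where rescaling to the same sum gave 340 of 684 and quantile normalization 157 of 481.

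The other disease-associated genes give the setting for these values. With circRNA against EGFP 24 of 26 had an estimate above 0, with a median of 0.22 beside 0.08 over all genes. The number that passed was 0 of 26, as it was 0% of all genes, and 0 of 26 had an unadjusted p under 0.05, beside 4.83%. Apoe at 0.38 (adjusted p = 0.739) and Lgals3 at 0.34 (adjusted p = 0.739) had the smallest p in limma. With PKR KO against EGFP 22 of 26 were above 0, with a median of 0.33 beside 0.01 over all genes. Here 0 passed, beside 0.0832% of all genes, and 9 of 26 had an unadjusted p under 0.05, beside 13.0%. Gpnmb, a glycoprotein of the endolysosome, was 1.18 higher (SE 0.21, limma adjusted p = 0.0644, passing in 6 of 17 settings), and Apoe, the lipid carrier, 0.82 higher (limma adjusted p = 0.151, passing in 2 of 17). Both comparisons share the EGFP libraries. With circRNA against PKR KO 10 of 26 were above 0, with a median of -0.08 beside 0.08 over all genes. Of the 26, 3 passed, all lower with circRNA, where 6.19% of all genes passed and 1.91% passed as lower. An unadjusted p under 0.05 was found for 7 of 26, beside 25.5% of all genes. Gpnmb was lower with circRNA by 0.98 on the log2 scale (-0.98, SE 0.17, limma adjusted p = 0.0101, held in 19 of 19 settings). Cd83, a surface molecule of activated myeloid cells, was at -0.73 (SE 0.14, limma adjusted p = 0.0149), and lost the call without PKR KO replicate 2 (adjusted p = 0.0510). Csf1, the growth factor of microglia, named to complete the count, was at -0.47 (SE 0.12, limma adjusted p = 0.0350) and held in 10 of 19 settings.

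Of the 49 relatives of the 7 genes, 34 were expressed enough to be tested. In neither treatment comparison with EGFP did any pass. With an unadjusted p under 0.05 there were 0 of 34 with circRNA, beside 4.83% of all genes, and 6 of 34 with PKR KO, beside 13.0%, and their medians were 0.10 with circRNA and -0.085 with PKR KO. Between circRNA and PKR KO 1 of 34 passed, beside 6.19% of all genes. This was Abcc1, an export pump listed with the transporters around Ank, at 0.39 (SE 0.07, limma adjusted p = 0.00932), from means of 3.24 and 2.25 FPKM. It lost the call under quantile normalization (adjusted p = 0.0595).

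**Figure D3:**
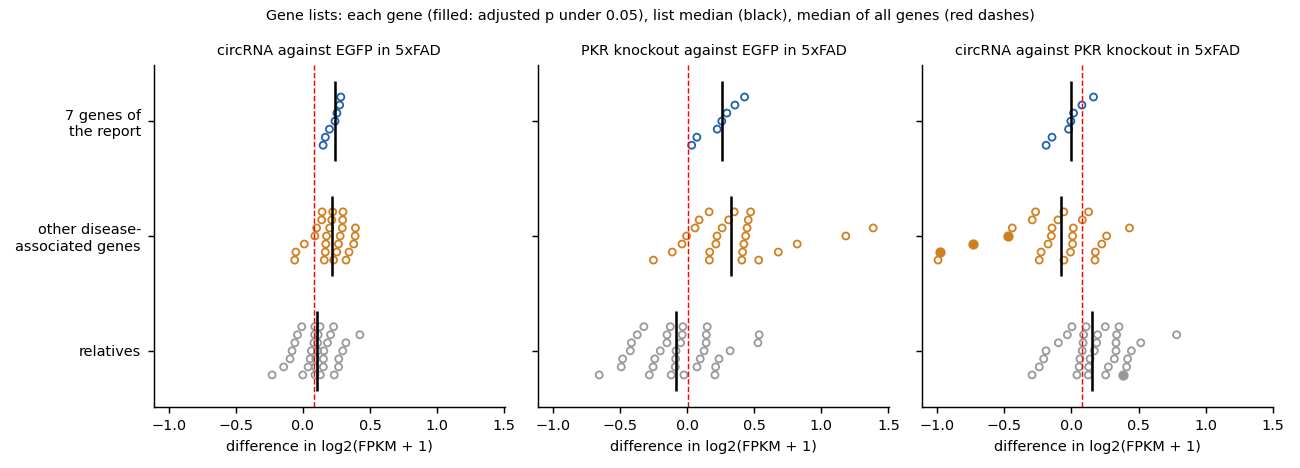
Differences in log2(FPKM + 1) of single genes (circles, filled where the adjusted p is under 0.05) in the 7 genes, the 26 other disease-associated genes and the 34 relatives tested, with each list's median (black line) and the median of all genes (red dashes), in 3 comparisons. No circle of the 7 genes is filled in any panel, and filled circles appear only between circRNA and PKR knockout, 3 in the second list and 1 in the third.

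At some ends of the groups most of the 7 genes named the same library, and part of this ran through the whole table. EGFP replicate 1 was above replicate 2 in 7 of 7 genes and in 75.7% of all genes tested. In the circRNA group replicate 3 was the highest in 6 of 7 (Cd52 was highest in replicate 2) and in 56.6% of all genes. Replicate 4 was the lowest in 6 of 7 (Baiap2l2 being the exception) and in 36.6% of all genes, and PKR KO replicate 3 was the lowest of its group in 7 of 7 and in 25.2%. The sums of FPKM over all genes had the same order at these points: 151254 and 139019 in EGFP replicates 1 and 2, 170775 and 148551 in circRNA replicates 3 and 4, the highest and lowest of that group, and 148055 in PKR KO replicate 3, the lowest of its group. The part of these sums in the ranking was not tested. Wild-type replicate 3 was the lowest of its group in 5 of 7 genes and in 55.0% of all genes, although its FPKM sum (126571) was above that of replicate 2 (123352). At other ends the genes split: the highest PKR KO library was replicate 1 for 1 gene (Lyz2), replicate 2 for 3 and replicate 4 for 3. The highest wild-type library was replicate 1 for 2 genes, replicate 2 for 3 and replicate 3 for 2. The microglial marker sum went the same way in the circRNA group, at -0.33 log2 units from the group mean in replicate 4 and 0.25 in replicate 3, where Lyz2 deviated by -0.35 and 0.41. It did not in PKR KO replicate 3, where the marker sum was the highest of its group (4405 FPKM, 0.05 from the mean) and Baiap2l2 deviated by -0.20. Oligodendrocyte markers went the other way in the circRNA group, with sums of 558, 215, 218 and 564 FPKM in replicates 1 to 4. The part of either in this variation was not tested.

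**Figure D4:**
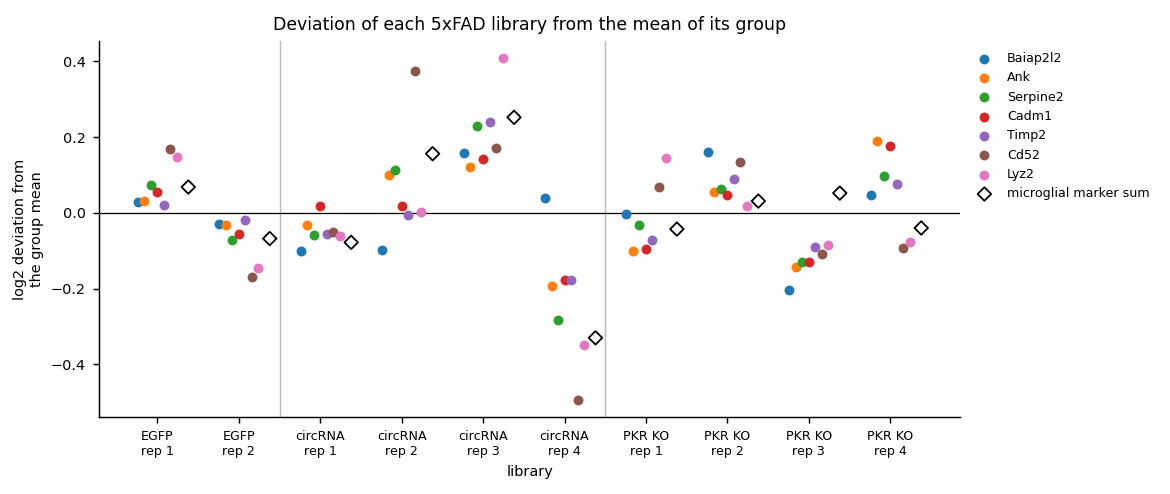
Deviation of each of the 10 5xFAD libraries from its group mean, in log2 units, for the 7 genes (coloured points) and the summed microglial markers (open diamonds). Points of one library lie mostly on one side of 0: low in circRNA replicate 4 and PKR knockout replicate 3, high in circRNA replicate 3.

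Over the 13 libraries, Pearson's r of log2(FPKM + 1) between the 7 genes was 0.922 to 0.990 over 21 pairs, with a median of 0.977. Over the 10 5xFAD libraries alone it was 0.182 to 0.930 with a median of 0.710, so the likeness was lower without the wild-type libraries, whose distance from 5xFAD chose the genes. The points share library, depth and marker content, and these values are a description. For Baiap2l2 the most alike genes over the 13 libraries were Cst7 (r = 0.998) and Rab7b (0.996), for Ank Apbb2 (0.995) and Myo1e (0.995), and for Serpine2 Nceh1 (0.996) and Mrgpre (0.996). For Cadm1 they were Masp1 (0.990) and Nceh1 (0.990), and for Timp2 Mpeg1 (0.996) and Npc2 (0.994). Cd52 and Lyz2 shared the cathepsin gene Ctsb as their nearest gene (0.994 and 0.996), followed by Hexa (0.991) and St14 (0.995).

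Within the 10 5xFAD libraries the nearest genes were different ones for every member. They were Ttc28 (0.968) and Gpr157 (0.964) for Baiap2l2, Cltc (0.977) and Cebpz (0.964) for Ank, and Fbxw11 (0.971) and Morf4l1 (0.965) for Cadm1. For Serpine2 they were Mpeg1 (0.981) and Cd34 (0.980), for Timp2 Coro1c (0.972) and Irak3 (0.965), for Cd52 F11r (0.965) and Aup1 (0.943), and for Lyz2 Cndp2 (0.987) and Vps18 (0.986). No gene was shared between the lists of 2 members here, unlike Ctsb and Nceh1 over 13 libraries.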

How the data were processed

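The data are 13 RNA-seq libraries of mouse microglia. TRIzol RNA was depleted of ribosomal RNA with RiboMinus and made into stranded TruSeq libraries sequenced on a NovaSeq, per the labels' protocols. Per the submitters' processing notes, Bowtie2 2.3.5, HISAT2 2.1.0, featureCounts 1.5.1 and the build mm10 were used. Their roles, and whether counting used the strand, are not given in the sources used here. The authors deposited 1 table of FPKM values, 1 column a library. FPKM divides by the library's total, so a few abundant genes can shift all others.

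Libraries were grouped by title. With exon-union lengths from GENCODE M21 (build GRCm38; 19394 genes, 98.3%), the 47122 values under 0.3 FPKM were turned into fragments at the depths given: 88.7% came out whole (tolerance 0.02) and 94.0% whole or at an odd multiple of 0.5. A count test was not run. The 6 genes other than Baiap2l2 had 384 to 46184 fragments a library, a counting error of at most 5.1%, and Baiap2l2 had at most 2.1% in 5xFAD. Counting error does not cover differences between animals or preparations.

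The test was limma 3.58.1 (R 4.3.3) on log2(FPKM + 1). It covered the 10817 genes whose mean reached 1 FPKM, with all 13 libraries in 1 model (9 residual degrees of freedom), eBayes with intensity trend and Benjamini-Hochberg adjustment over all genes tested in each of 3 comparisons, at a threshold of 0.05. All 7 genes passed the filter. The code was tested on simulated data. Alternatives changed the pseudocount, filter, scaling, model, weights and libraries. The genes and lists were chosen with earlier results of these data known. Named were the 7 genes, some of their expressed relatives (picked after their values were seen), the 2 other disease-associated genes that passed with the largest change or else with the smallest p, and the 2 genes nearest to each in Pearson's r. Counts over relatives leave out 1 listed gene that is not reported here. Promoters are from RefSeq.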

Additional observations from a re-analysis of the deposited data

How the results depend on the processing

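The number of the 7 genes that passed stayed at 0 for circRNA against EGFP in all settings run. For PKR KO against EGFP it was 1 under arrayWeights, and for circRNA against PKR KO it was 1 under median-ratio scaling and 1 under arrayWeights, Baiap2l2 each time; it was 0 in all other settings run. Without wild-type replicate 3, a setting chosen after seeing the data, it was 0 in all 3 comparisons. For circRNA against EGFP no estimate of the 7 genes changed sign, but leaving out 1 library moved Cd52 over 0.10 to 0.44 and Lyz2 over 0.13 to 0.43. For PKR KO against EGFP, quantile normalization gave Ank -0.15, Cadm1 -0.0439 and Timp2 -0.0271, rescaling to the same sum gave Cadm1 -0.0224, and leaving out 1 library gave Cadm1 -0.0257 to 0.0883. For circRNA against PKR KO the values near 0 changed sign. Ank was -0.0498 under median-ratio scaling and -0.0014 with the marker covariate. Serpine2 was -0.0414 after rescaling, -0.11 under median-ratio scaling and -0.043 under arrayWeights. Timp2 was 0.13 after quantile normalization and 0.11 with the covariate, and Cd52 was 0.0092 and 0.17. Leaving out 1 library gave Serpine2 -0.0603 to 0.11, Timp2 -0.0846 to 0.0543 and Cd52 -0.15 to 0.14. Without a change of sign it moved Lyz2 over -0.28 to -0.03, Ank over 0.03 to 0.14, Baiap2l2 over -0.26 to -0.14 and Cadm1 over 0.12 to 0.22. The cause was not tested.

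Over the whole table, genes called ranged over the settings from 0 to 3 for circRNA against EGFP, from 0 to 822 for PKR KO against EGFP (9 as reported) and from 146 to 3161 for circRNA against PKR KO (670 as reported). For PKR KO against EGFP, 0 passed without EGFP replicate 1 or 2 or without PKR KO replicate 2, 3 or 4, 2 without PKR KO replicate 1 and 59 without wild-type replicate 3. For circRNA against PKR KO, 162 and 309 passed without circRNA replicate 1 or 3, 146, 160 and 225 without PKR KO replicate 1, 2 or 3, and 1339 without wild-type replicate 3. Replicate numbers are shared between groups, but same-numbered libraries did not deviate from their group means together in every pair. Over the 4 pairs of circRNA and PKR KO r was 0.036 to 0.553, with a mean of 0.188 against -0.061 for other numbers. Of these 8 libraries, 2 correlated best with their own number. Same-numbered pairs with EGFP gave -0.024 and 0.174 for circRNA, and 0.382 and 0.273 for PKR KO. With the replicate number as a block, 0 of the 7 genes passed in each comparison, and the counts over the table were 0, 22 and 448.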
